A study of Mus musculus with 6 samples.

Results

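Histones and DNA carry small chemical marks that are placed by writer enzymes and removed by eraser enzymes, and transcripts of 9 such enzyme families were compared in mouse liver. Members were chosen by name alone, as rows named Hdac, Sirt, Kdm, Kmt, Setd, Prmt, Kat, Dnmt or Tet followed by a digit. Of 84 rows with such a name, 6 pseudogenes (names holding -ps) and 1 row on the Y chromosome, Kdm5d, were left out, which gave 77 members among 49212 gene rows. Of these, 70 had enough counts to be tested, beside 15126 genes tested in all. Dnmt3aos, Dnmt3bos and Kdm6bos matched the names but are antisense RNAs and not enzymes. Of them only Kdm6bos had enough counts for the test.

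The 3 placebo libraries and the 3 libraries labelled with a DHT pellet came from 15-week-old C57BL/6J mice, and liver RNA was sequenced. The androgen DHT (dihydrotestosterone) was given from the pellet, and the labels name only the pellet-treated animals as PCOS (polycystic ovary syndrome) mice. The labels give no sex, dose, collection time or litter, and do not say whether each library is 1 animal. The p-values therefore reflect the variation among these 6 libraries, part of which may be technical. The study's title names epigenetic modulation among its subjects, and the question put here is whether the transcripts of these enzymes differed between the groups.

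Deacetylases (Hdac and the NAD-dependent Sirt proteins) take acetyl groups off lysines, and Kat acetyltransferases put them on. Kmt and Setd proteins include the writers of lysine methylation, Kdm proteins erase it, and Prmt proteins methylate arginines. Dnmt proteins methylate cytosine in DNA, and Tet proteins oxidise the methyl group. Many of these enzymes use a metabolite of liver metabolism as cosubstrate. Kat proteins use acetyl-CoA, Sirt proteins NAD, methyltransferases S-adenosylmethionine, and Tet and most Kdm proteins α-ketoglutarate, while the Hdac proteins are zinc-dependent hydrolases. Some members act mainly on other substrates, among them the mitochondrial Sirt3, Sirt4 and Sirt5 and the actin methyltransferase Setd3.

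Total counts lay between 41336844 and 60209462 per library, of which the members took between 0.0969% and 0.135%. The libraries labelled DHT held 145 to 169 CPM (counts scaled to library size) from the Y chromosome and the placebo libraries 1.02 to 2.16. Y-linked reads, which come from male tissue, were thus present in every DHT library and nearly absent in placebo. The groups therefore appear to differ in sex, which the labels do not give. Sex and treatment cannot be told apart in any comparison below. Placebo 3 had the lowest share of mitochondrial counts, 3.23% against 4.83% to 8.47% in the other libraries. Of 9 preset cell type marker lists, 0 held a gene called between the groups by edgeR, 3 did by DESeq2 (1 hepatocyte, 2 cholangiocyte and 1 T and NK cell marker lower) and 2 by limma voom (1 cholangiocyte and 1 T and NK cell marker lower). With the replicate block described below, 2 hepatocyte, 2 stellate and 1 cholangiocyte marker were called lower and 1 cycling marker higher. Over all genes edgeR called 1.65%, DESeq2 7.02%, limma voom 4.67% and the fit with the block 10.7%. Hepatocyte markers were abundant in all 6 libraries. Summed over the list, the 6 hepatocyte markers lay between 94404 and 131391 CPM in placebo and between 72405 and 85225.5 CPM in DHT, and the 6 stellate cell markers between 442.9 and 835.3 CPM and between 290.1 and 374.1 CPM. The 6 T and NK cell markers lay at 2.62 to 4.73 and at 1.48 to 2.39 CPM, and the 5 markers of cycling cells at 3.94 to 8.77 and at 8 to 13.6 CPM. The cycling cell, Kupffer, endothelial, cholangiocyte, B cell and neutrophil sums overlapped between the groups. Ly6g, a neutrophil marker, had 0 counts in all placebo libraries and 2, 0 and 0 counts in DHT 1, 2 and 3. The part of these markers in the results was not tested, and in whole tissue fewer cells of a type and less RNA per cell cannot be told apart. CPM below are scaled by TMM, a correction for library composition.

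In the fit without pairing no member differed between the groups beyond the threshold, and with the replicate number as a block 2 did, Kat6b and Kdm4a. By edgeR's quasi-likelihood test with Benjamini-Hochberg adjustment over all genes, 0 of the 70 members had an adjusted p under 0.05, where 1.65% of all genes did. DESeq2 and limma voom with quality weights also called 0 of the 70, where they called 7.02% and 4.67% of all genes. No member was called with library size alone (1.96% of all genes), with length and GC trends removed (3.2%), without placebo 3 (5.54%) or without both libraries numbered 3 (2.95%). At an unadjusted p under 0.05 there were 8 members, Hdac1, Hdac8, Kdm1b, Kdm3b, Kdm4a, Kdm6a, Kmt5a and Setd1a, or 11.4% against 15.9% of all genes. The lowest adjusted p of any member was 0.222, that of Hdac8.

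The fold changes were small. On the log2 scale (DHT minus placebo) they ran from −0.80 in Setd4 to 0.90 in Kdm6bos, and the median was 0.16 against −0.02 over all genes. Values were above 0 in 47 members (67.1%, against 48.1% of all genes) and below 0 in 23. Scaled by library size alone, the median of all genes moved to 0.165 and that of the members to 0.35. The members stood 0.18 above all genes under both scalings. This follows from the method, since a change of scaling moves all genes by nearly the same amount. Without placebo 3 the distance of the members from all genes was 0.072, and without placebo 2 it was 0.39.

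The 95% interval of the fold change lay within a 2-fold change in both directions for 28 of the 70 members (40%, against 29.9% of all genes). For 34 members (5475 of the 15126 genes) the interval reached a 2-fold higher level in DHT, and for 10 (6195 of all genes) a 2-fold lower one. For those members the interval therefore includes a 2-fold difference.

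**Figure D1:**
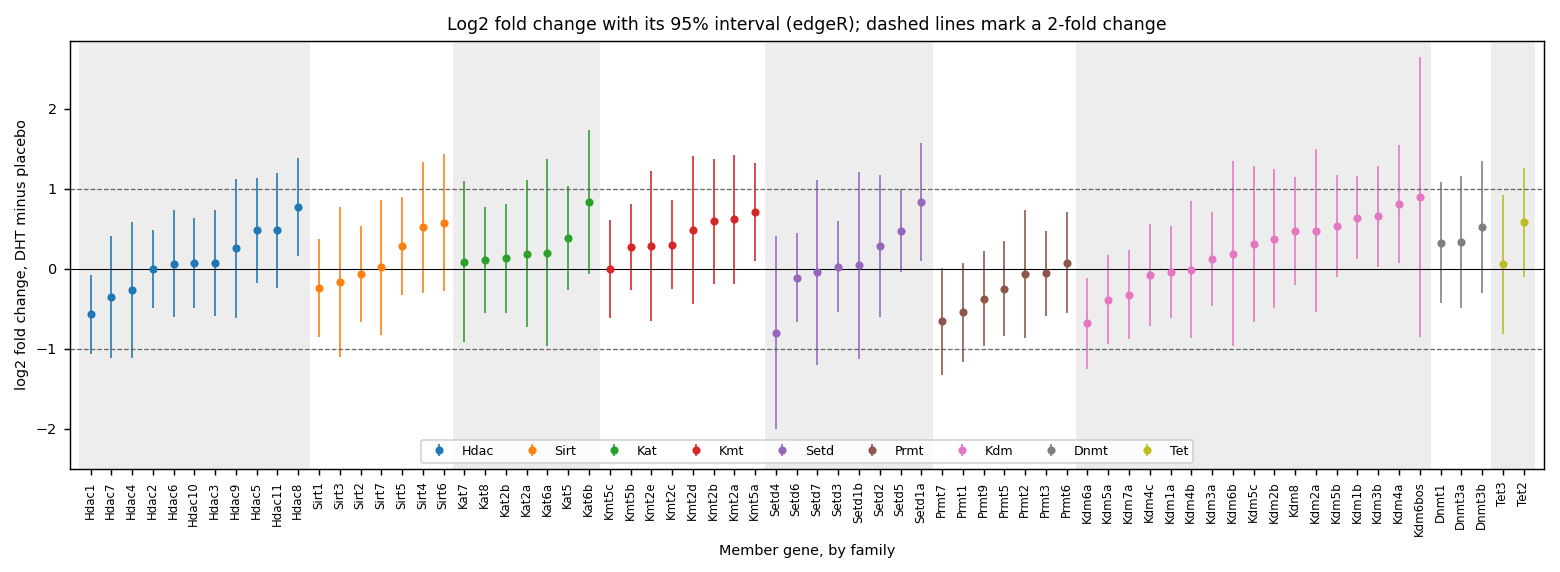
Log2 fold change (DHT minus placebo, vertical axis) of each of the 70 tested members with its 95% interval from the edgeR fit, grouped by family along the horizontal axis; dashed lines mark a 2-fold change. The estimates run from −0.80 to 0.90 and 34 intervals reach the upper dashed line.

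The groups did not overlap in 17 members (24.3%), close to the 23.6% of all genes for which this held. In 13 of the 17 all 3 DHT libraries lay above all 3 placebo libraries (12.7% of all genes), and in 4, Hdac1, Kdm5a, Kdm6a and Prmt7, they lay below (10.9% of all genes). Without placebo 3 the groups did not overlap in 26 of 71 tested members, against 41.9% of all genes. These 26 included the 17 in the same direction, which follows from the count itself, since leaving out a library hardly makes separate groups overlap. Of the 26, 18 were higher in DHT (21.9% of all genes) and 8 lower (20.1%). Without both libraries numbered 3 the groups did not overlap in 33 members, against 54.3% of all genes. Leaving out placebo 1, placebo 2, DHT 1, DHT 2 or DHT 3 gave 24, 25, 21, 20 and 22 members, against 31.4%, 38.6%, 28.1%, 28.8% and 35.4% of all genes.

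**Figure D2:**
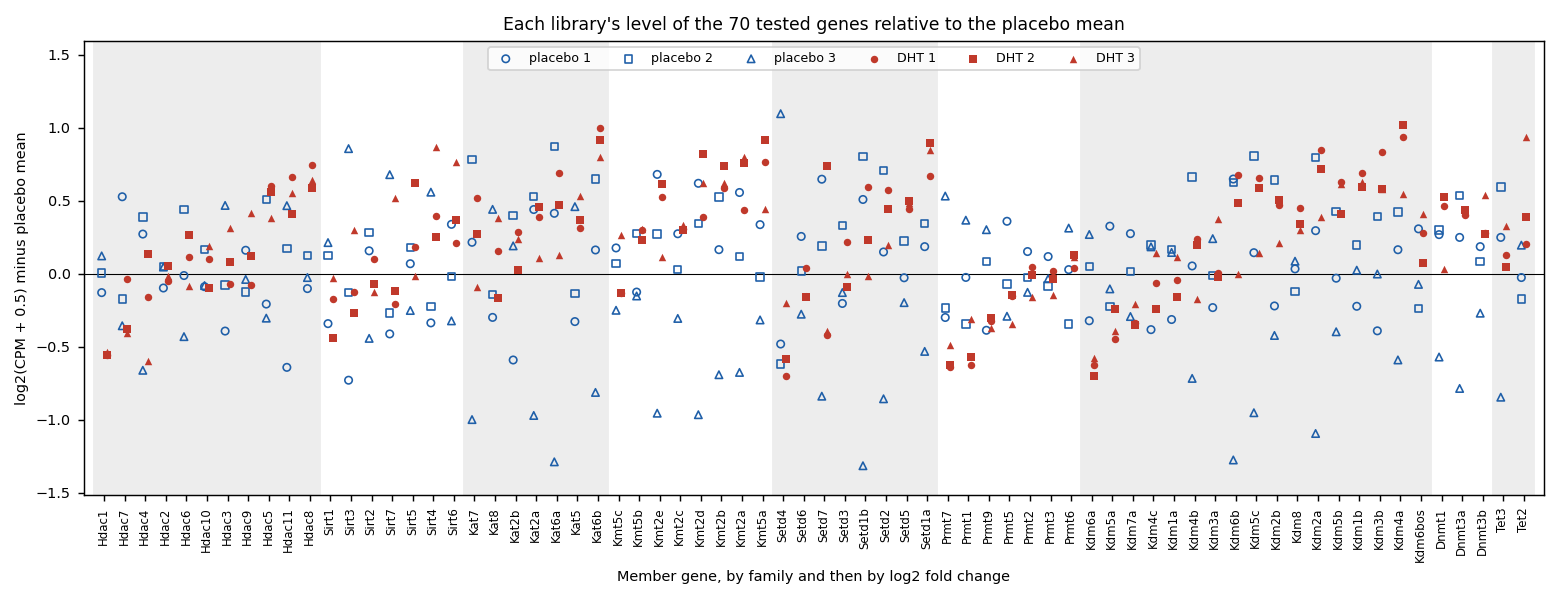
Level of each of the 70 tested members in each library, as log2(CPM + 0.5) minus the mean of the 3 placebo libraries (vertical axis), by family and fold change (horizontal axis). Open blue symbols are placebo and filled red symbols DHT; the open triangles of placebo 3 are the lowest placebo value in 39 members.

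The replicate numbers in the titles were used as a block because same-numbered libraries deviated together, although only those numbered 3 correlated best with their own number. Whether the numbers pair the libraries is not known, so calls that rest on the block are uncertain. The fit with the block called 2 of the 70 members where it called 10.7% of all genes. These were Kat6b and Kdm4a. With gene length and GC trends also removed per library, the block fit again called 2 members, Kdm4a and Kdm6a, and 10.9% of all genes. Kdm4a, called in both, and Kdm6a, with a fold change of the opposite sign, are shown by the 250 bases before their start. Both are from RefSeq on GRCm38.p6, written 5′ to 3′ on the gene's strand, with CG dinucleotides in capitals because they are the sites that Dnmt enzymes methylate. The Kdm4a window is chr4:118180044-118180293 on the minus strand and the Kdm6a window is chrX:18162325-18162574 on the plus strand.
Kdm4a: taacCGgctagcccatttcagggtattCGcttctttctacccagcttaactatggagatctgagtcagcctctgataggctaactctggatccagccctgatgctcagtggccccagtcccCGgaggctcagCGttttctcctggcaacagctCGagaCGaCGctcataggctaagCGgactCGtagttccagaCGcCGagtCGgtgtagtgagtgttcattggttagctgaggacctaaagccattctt
Kdm6a: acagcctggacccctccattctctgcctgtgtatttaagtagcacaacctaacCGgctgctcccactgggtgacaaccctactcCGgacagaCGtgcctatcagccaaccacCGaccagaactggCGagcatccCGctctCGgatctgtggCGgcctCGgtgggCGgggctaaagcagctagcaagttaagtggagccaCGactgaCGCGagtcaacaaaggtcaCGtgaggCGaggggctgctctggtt

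The Kdm4a window held 12 CG dinucleotides and the Kdm6a window 15. A RefSeq promoter matched 57 of the 70 tested members and 10694 of all tested genes, taking the start farthest upstream where there were several. In these windows 48 members (84.2%) had at least 10 CG dinucleotides, against 70.3% of all genes. The median was 15 CG dinucleotides in members and 15 in all genes. The E-box CACGTG, the element bound by clock factors, which reads the same on both strands and overlaps the central CG, was found in 5 members (8.77%) and in 8.22% of all genes. The 5 were Kat5, Kdm6a, Prmt1, Prmt3 and Sirt1. No methylation or binding was measured in these samples.

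Among the deacetylases, Hdac1 and Hdac8 pointed in opposite directions. Hdac1, a class I deacetylase of the Sin3, NuRD and CoREST corepressor complexes (GRCm38 chromosome 4, 129516104 to 129542713), had 23.7, 26.0 and 28.2 CPM in placebo 1, 2 and 3 and 17.5, 17.5 and 17.7 CPM in DHT 1, 2 and 3. All DHT values were below all placebo values and nearly equal to one another. The log2 fold change was −0.57 ± 0.22 (SE, adjusted p = 0.254). Hdac8, an X-linked class I enzyme that deacetylates cohesin (chromosome X, 102284639 to 102505359), had 2.08, 2.52 and 2.22 CPM in placebo and 4.14, 3.67 and 3.83 CPM in DHT. Here the groups were apart in the other direction, with a log2 fold change of 0.77 ± 0.27 (adjusted p = 0.222). Hdac2, the close relative of Hdac1, was level, at 21.97 to 24.4 CPM in placebo and 22.7 to 24.5 in DHT.

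Of the 11 Hdac genes, 9 overlapped between the groups (18.2% apart, against 23.6% of all genes). Hdac3, the catalytic subunit of the NCoR and SMRT complexes that repress lipid genes in liver, had 21.7, 27.1 and 39.8 CPM in placebo and 27.2, 30.3 and 35.6 CPM in DHT. Hdac11 had the highest level per exon length of the family, 8.17 CPM per kb in placebo and 11.4 in DHT, and Hdac9 the lowest, 0.0502 and 0.0602. Exons of Hdac11 overlap those of a neighbouring gene over 17.9% of their length and those of Hdac4 over 22.4%. Whether counting used strand is not known here, so those reads are uncertain. The family's median log2 fold change was 0.069.

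All 7 sirtuins overlapped between the groups (0% apart, against 23.6% of all genes). Sirt3, the main mitochondrial deacetylase (chromosome 7, 140863666 to 140882309), had 38.7, 58.8 and 117 CPM in placebo and 58.9, 53.5 and 79.3 CPM in DHT. Its placebo range held all DHT values, and the log2 fold change of −0.16 ± 0.41 (adjusted p = 0.878) became 0.39 without placebo 3. Exons of Sirt3 overlap those of Ric8a and other neighbours over 12.7%. Sirt1, the nuclear sirtuin that acts on clock and metabolic factors, had 7.16, 10.1 and 10.8 CPM in placebo and 8.12, 6.65 and 8.99 CPM in DHT.

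The 2 sirtuins with the smallest p were Sirt6 and Sirt4. Sirt6, a chromatin-bound deacetylase (chromosome 10, 81621785 to 81627797), had 1.75, 1.26 and 0.925 CPM in placebo and 1.56, 1.80 and 2.53 CPM in DHT (log2 fold change 0.57 ± 0.37, adjusted p = 0.483; 0.37 without placebo 3 and 0.36 without DHT 3). Sirt4, a mitochondrial sirtuin (chromosome 5, 115478010 to 115484725), had 3.37, 3.69 and 6.70 CPM in placebo and 5.92, 5.33 and 8.43 in DHT (0.52 ± 0.35, adjusted p = 0.505). The Sirt4 value was 0.89 without placebo 3, 0.31 without placebo 1 and 0.30 without DHT 3. In Sirt1, Sirt3, Sirt4 and Sirt7 the third library was the highest of its group in both groups. The family's median log2 fold change was 0.018, and 0.37 without placebo 3.

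All 7 acetyltransferases had a log2 fold change above 0, from 0.086 to 0.84 with a median of 0.19 (0.11 without DHT 1 and 0.43 without placebo 2). The groups overlapped in 6 of the 7 (14.3% apart, against 23.6% of all genes). Without placebo 3 the log2 fold change was below 0 in Kat2a, Kat6a and Kat7 (−0.166, −0.225 and −0.280). It stayed above 0 in the other Kat genes, and the family's median was 0.199. Kat6b, the catalytic subunit of a MYST-type histone acetyltransferase complex (chromosome 14, 21481434 to 21672478), had 6.11, 8.75 and 2.86 CPM in placebo and 11.3, 10.6 and 9.78 CPM in DHT. The DHT values were all above the placebo values, and placebo 3 was the lowest of the 6. The log2 fold change was 0.84 ± 0.39 (adjusted p = 0.341), and 0.97 with the replicate block (adjusted p = 0.0292, called). With length and GC trends removed in the same fit the adjusted p was 0.0593, and over all 17 alternatives it ran from 0.0292 to 0.662. Without placebo 3 the log2 fold change was 0.51.

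Kat5, which encodes TIP60, the acetyltransferase of the NuA4 complex (chromosome 19, 5603017 to 5610094), had 6.79, 7.84 and 12.1 CPM in placebo and 10.9, 11.3 and 12.8 CPM in DHT (log2 fold change 0.39 ± 0.28, adjusted p = 0.532; 0.67 without placebo 3 and 0.20 without placebo 1). Its exons overlap those of Rnaseh2c and other neighbours over 21.1%. Kat2b, or PCAF, a SAGA-type acetyltransferase (chromosome 17, 53566861 to 53672720), had the highest level per exon length of all members, 14.1 CPM per kb in placebo and 15.4 in DHT. Its CPM were 43.5, 86.8 and 75.1 in placebo and 80.3, 67.0 and 77.8 in DHT (0.13 ± 0.30, adjusted p = 0.864), and the sign turned without placebo 1 (−0.13). Kat6a, the relative of Kat6b, had 13.3, 18.5 and 3.74 CPM in placebo and 16.2, 13.8 and 10.8 in DHT, so that the placebo libraries held both the highest and the lowest value.

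Of the 8 Kmt genes, 7 had a log2 fold change above 0 and in 3, Kmt2b, Kmt2c and Kmt5a, all DHT libraries were above all placebo libraries. These 3 made up 37.5% of the family, where 12.7% of all genes were apart with DHT higher and 23.6% in either direction. Kmt5a, the enzyme that monomethylates histone H4 (chromosome 5, 124439930 to 124462308), had 33.2, 25.8 and 20.9 CPM in placebo and 44.9, 49.9 and 35.9 CPM in DHT. The lowest DHT value was just above the highest placebo value, and the log2 fold change was 0.71 ± 0.27 (adjusted p = 0.249). Kmt2a, or MLL1, a writer of the methyl mark of active promoters (chromosome 9, 44803355 to 44881296), had 11.2, 8.10 and 4.46 CPM in placebo and 10.2, 12.9 and 13.3 in DHT (0.62 ± 0.35, adjusted p = 0.422; 0.33 without placebo 3 and 0.93 without placebo 1). The family's median log2 fold change was 0.39, 0.18 without placebo 3 and 0.63 without placebo 1. In all 8 Kmt genes placebo 3 was the lowest placebo library.

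Of the 8 Setd genes, 6 overlapped between the groups (25% apart, against 23.6% of all genes). Setd1a, the catalytic subunit of a SET1/COMPASS methyltransferase complex (chromosome 7, 127776670 to 127800122), had 4.01, 4.53 and 2.24 CPM in placebo and 5.79, 6.86 and 6.62 CPM in DHT. The groups were apart, with a log2 fold change of 0.84 ± 0.32 (adjusted p = 0.261). Exons of Setd1a overlap those of neighbouring genes over 52.3% of their length, so its counts are uncertain. Setd5 (chromosome 6, 113077365 to 113153435) had 17.9, 21.4 and 15.9 CPM in placebo and 25.1, 26.0 and 25.8 in DHT, also apart (0.48 ± 0.23, adjusted p = 0.347).

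Setd3, which methylates a histidine of actin (chromosome 12, 108106431 to 108179314), was the second most abundant member per exon length, at 12.8 CPM per kb in placebo and 13.0 in DHT. Its CPM were 66.1, 95.9 and 69.6 in placebo and 88.7, 71.3 and 76.1 in DHT, and the log2 fold change of 0.028 ± 0.25 (adjusted p = 0.970) changed sign under several alternatives. Setd4 had the lowest log2 fold change of all members, −0.80 ± 0.52 (adjusted p = 0.490; chromosome 16, 93583457 to 93604063). This value rested on 1 library: placebo 3 had 9.93 CPM, placebo 1 and 2 had 2.99 and 2.68, and DHT had 2.5, 2.75 and 3.74. Without placebo 3 the log2 fold change was 0.074. The family's median was 0.035, −0.045 without placebo 3 and 0.32 without placebo 2.

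In the edgeR fit without pairing, the arginine methyltransferases were the one family with a median log2 fold change below 0, at −0.25. It was −0.064 with library size alone, −0.058 without placebo 1 and −0.21 without placebo 3. Of 7 tested members, 6 had a value below 0 and 0 were called. With length and GC trends removed, the medians of Prmt, Sirt and Setd were all below 0, at −0.274, −0.141 and −0.0072. Prmt7 (chromosome 8, 106210936 to 106252794) had 13.8, 14.4 and 24.9 CPM in placebo and 10.8, 10.9 and 12.03 CPM in DHT. The groups were apart, placebo 3 was far above the other libraries, and the log2 fold change was −0.65 ± 0.29 (adjusted p = 0.322), and −0.33 without placebo 3. Prmt1, the main writer of asymmetric arginine methylation (chromosome 7, 44975989 to 44986568), had 16.05, 12.8 and 21.2 CPM in placebo and 10.4, 10.8 and 13.1 in DHT, with an overlap (−0.54 ± 0.27, adjusted p = 0.363; −0.33 without placebo 3). Prmt5, the main writer of the symmetric form, had 18.6, 13.7 and 11.6 CPM in placebo and 12.9, 12.9 and 11.2 in DHT. Prmt8, known as a brain enzyme, had 0 counts in all libraries.

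The lysine demethylases, the largest family with 19 rows and 17 tested, held 4 of the 8 members with an unadjusted p under 0.05. That was 23.5% of the tested family, against 15.9% of all genes. The groups were apart in 35.3% of the family, against 23.6% of all genes. Kdm1b, the flavin-dependent demethylase also called LSD2 (chromosome 13, 47043499 to 47084613), had 20.9, 28.2 and 24.9 CPM in placebo and 39.9, 37.3 and 38.2 CPM in DHT. All DHT libraries were well above the highest placebo library. The log2 fold change was 0.64 ± 0.23 (adjusted p = 0.228), and placebo 3 lay between the other placebo libraries. Its relative Kdm1a, or LSD1, had 9.34 to 13.2 CPM in placebo and 10.4 to 12.8 in DHT.

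Kdm4a, an eraser that belongs to the Jumonji type (chromosome 4, 118136957 to 118180043), had 14.1, 17 and 8.16 CPM in placebo and 24.4, 26.0 and 18.5 CPM in DHT. All DHT values were above all placebo values, and both libraries numbered 3 were the lowest of their group. The log2 fold change was 0.81 ± 0.32 (adjusted p = 0.271), and 0.86 with the replicate block (adjusted p = 0.0297, called; 0.0297 to 0.632 over the 17 alternatives). Without placebo 3 it was 0.56. Kdm3b, a related eraser (chromosome 18, 34777008 to 34839370), had 9.43, 16.6 and 12.5 CPM in placebo and 22.7, 19.0 and 18.9 in DHT, also apart (0.66 ± 0.27, adjusted p = 0.296). Kdm8, at 0.47 on the log2 scale, was the remaining demethylase gene with all DHT libraries above placebo. Kdm3a, whose protein is tied to lipid metabolism in mice, had 7.55 to 10.7 CPM in placebo and 8.79 to 11.7 in DHT.

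Kdm6a and Kdm5a were the demethylase genes whose DHT libraries lay below all placebo libraries. Kdm6a, or UTX, removes the repressive mark that Polycomb writes (chromosome X, 18162575 to 18279936). It had 11.5, 15.0 and 17.6 CPM in placebo and 9.24, 8.71 and 9.53 CPM in DHT. The log2 fold change was −0.68 ± 0.25 (adjusted p = 0.241, and 0.0358 with the block and trends removed, where it was called; 0.0358 to 0.611 over the 17 alternatives). Kdm6b, the autosomal relative, had 14.7, 14.4 and 3.49 CPM in placebo and 15.0, 13.0 and 9.15 in DHT, with DHT 3 below placebo 1 and 2, and placebo 3 the lowest of all. Kdm6bos, on the other strand of Kdm6b, had at most 0.313 CPM in any library, and the interval of its log2 fold change ran from −0.85 to 2.65. Its exons overlap those of Kdm6b over 34%. The Kdm median log2 fold change was 0.31, and 0.093 without placebo 3.

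Kdm6a and Kdm5c are X-linked genes known to escape X inactivation, and each has a relative on Y that was outside the name rule or left out by it. Kdm5c had 32.8, 52.2 and 15.1 CPM in placebo and 47.0, 44.8 and 32.8 in DHT, with a wide overlap. Its Y relative Kdm5d had 0, 1 and 0 counts in placebo and 565, 525 and 462 in DHT, which made up 16.3%, 17.3% and 24% of the reads of the pair. For Kdm6a and Uty the Y share was 57%, 55.3% and 61.3% in DHT. The reads of Kdm6a and Uty together came to 14.7 ± 3.04 CPM in placebo and 21.8 ± 2.59 CPM in DHT (SD, n = 3 each). The group with fewer Kdm6a reads had more reads of the pair. How reads that match both copies were counted is not known, so the split within each pair is uncertain. Of the other X-linked members, Hdac8 is described above, and Hdac6 had 8.64 to 16.2 CPM in placebo and 11.1 to 14.3 in DHT.

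**Figure D3:**
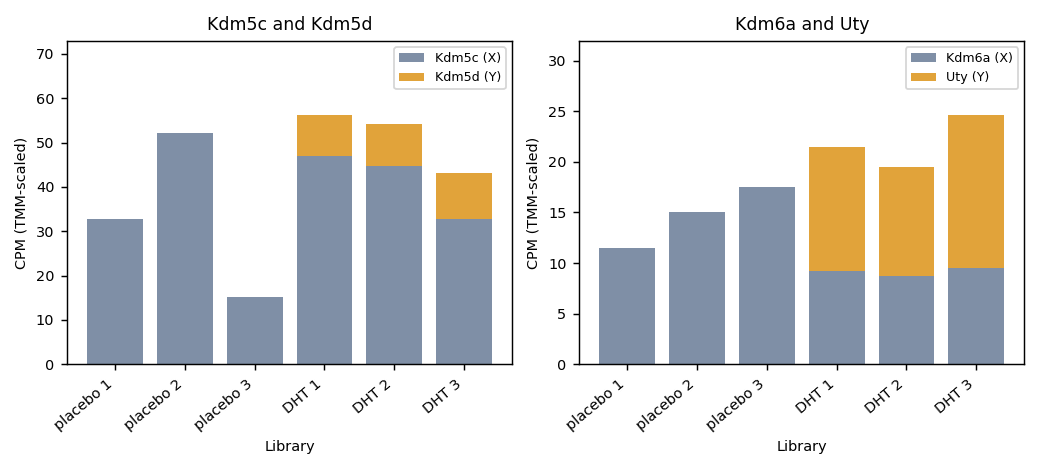
Stacked bars of TMM-scaled CPM (vertical axis, from 0) of Kdm5c with Kdm5d and of Kdm6a with Uty in each of the 6 libraries (horizontal axis); grey is the X gene and orange the Y gene. Orange reads make up 55.3% to 61.3% of the Kdm6a and Uty reads in the DHT libraries and 0% to 0.149% in placebo.

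The DNA methyltransferases and Tet dioxygenases had low levels. Dnmt1, the maintenance methyltransferase (chromosome 9, 20907209 to 20959888), had 6.83, 6.99 and 3.598 CPM in placebo and 7.91, 8.26 and 5.73 CPM in DHT (log2 fold change 0.33 ± 0.33, adjusted p = 0.652; 0.077 without placebo 3). Dnmt3a, a de novo enzyme, had 9.20, 11.3 and 4.23 CPM in placebo and 10.3, 10.6 and 10.4 in DHT. Its DHT values lay inside the placebo range, which placebo 3 widened. Dnmt3b, the other de novo enzyme (chromosome 2, 153649450 to 153687730), had 1.03, 0.926 and 0.617 CPM in placebo and 1.14, 1.13 and 1.45 in DHT, apart but close (0.52 ± 0.36, adjusted p = 0.506; 0.33 without placebo 3). Dnmt3l, a cofactor known from germ cells, had 0 counts in all 6 libraries.

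Tet2 (chromosome 3, 133463679 to 133545139) had 5.02, 4.49 and 5.94 CPM in placebo and 5.97, 6.86 and 10.3 CPM in DHT. The lowest DHT library was just above the highest placebo library, and DHT 3 stood above the others (log2 fold change 0.58 ± 0.30, adjusted p = 0.373; 0.32 without DHT 3). Tet3 (chromosome 6, 83362373 to 83459084) had 11.5, 14.7 and 5.10 CPM in placebo and 10.5, 9.89 and 12.1 in DHT (0.055 ± 0.38, adjusted p = 0.962; −0.28 without placebo 3). Tet1 had 24 counts over the placebo libraries and 20 over the DHT libraries and was not tested. The other rows not tested were Dnmt3aos, Dnmt3bos, Dnmt3l, Kdm4d, Kdm4dl and Prmt8, with at most 5 counts in a group. The median log2 fold change was 0.34 for the 3 tested Dnmt genes and 0.32 for the 2 tested Tet genes. The Dnmt median was 0.077 without placebo 3 and 0.57 without placebo 2. Over the same 2 genes the Tet median was 0.21 without placebo 3.

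Per exon length the families had different levels in these livers. The median member had 6.52 CPM per kb among sirtuins, 4.21 among Kat, 2.34 among Prmt and 2.14 among Hdac genes. It had 1.72 among Kdm, 1.25 among Kmt and 1.21 among Setd genes, and 0.561 and 0.509 among Dnmt and Tet genes. Within a family the levels spread widely, from 0.0552 to 9.79 CPM per kb in the Hdac genes. The 3 highest members were Kat2b, Setd3 and Sirt3, at 14.7, 12.9 and 11.3 CPM per kb over all 6 libraries. Their order is not settled, since Sirt3 alone ran from 38.7 to 117 CPM within placebo.

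**Figure D4:**
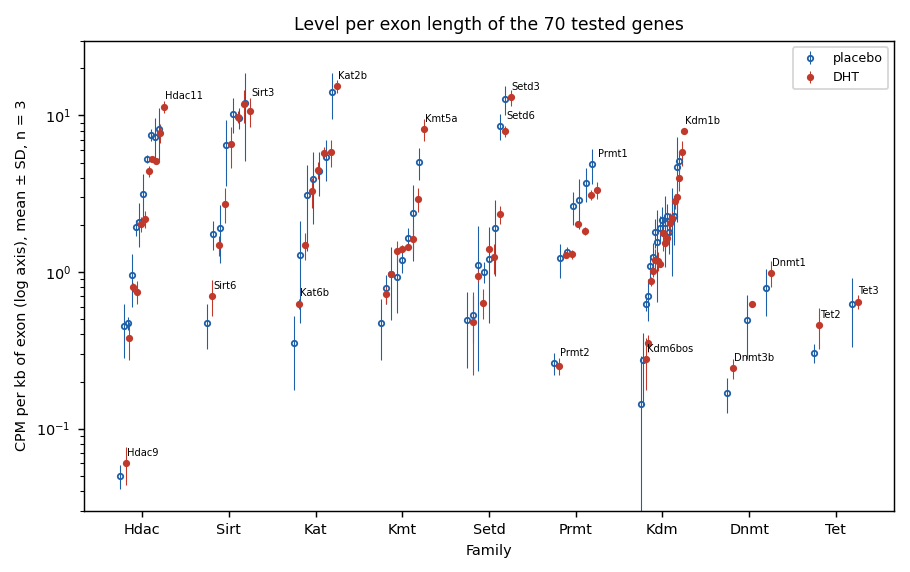
CPM per kb of exon (vertical log axis) of the 70 tested members by family (horizontal axis), as mean ± SD over 3 libraries for placebo (open blue) and DHT (filled red); where the SD exceeds the mean the bar runs below the axis. The highest member, Kat2b, has 14.1 CPM per kb in placebo and the lowest, Hdac9, has 0.0502.

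The members varied more among the placebo libraries than among the DHT libraries. The range within a group, on the log2(CPM + 0.5) scale, had a median of 0.79 in placebo and 0.31 in DHT, and was larger in placebo for 66 of the 70 members. Over all genes the medians were 0.78 and 0.39, and the placebo range was larger for 12413 of 15126 genes. Placebo 3 was the lowest placebo library for 39 members and the highest for 18. It was low in all 8 Kmt genes, where its median distance from the mean of placebo 1 and 2 was −0.74, and in Kat7, Kdm2a, Kat6a, Kdm6b and Setd1b, with −1.498, −1.64, −1.93, −1.91 and −1.97. It was high in Sirt7, Sirt3 and Setd4, with 1.02, 1.29 and 1.65.

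Placebo 3's distance went with exon length. Of the 35 members with exons longer than the median of 5820 bases, 29 lay lower in placebo 3 than in the mean of placebo 1 and 2, with a median distance of −0.63. Of the 35 up to that length, 18 did, with a median of −0.038. Across the 70 members Pearson's r of this distance with log2 exon length was −0.42 (Spearman's rho −0.47), and across all 15126 genes −0.40 (rho −0.41). These are correlations across genes of the same libraries, which are not independent replicates. DHT 3's distance from DHT 1 and 2 had r = −0.15 with log2 exon length across the members (rho −0.18). Across all genes it had r = −0.26 (rho −0.30). The distances of the libraries numbered 3 correlated at r = 0.72 across the members and at 0.64 across all genes. The comparison was repeated without placebo 3. The log2 fold change then changed sign in 16 of the 70 members, kept its sign but moved by over 1.5 times in 36, and stayed within 1.5 times in 18. The median log2 fold change of the longer members was 0.28 with it and 0.077 without it, and that of the shorter members was 0.073 and 0.074.

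**Figure D5:**
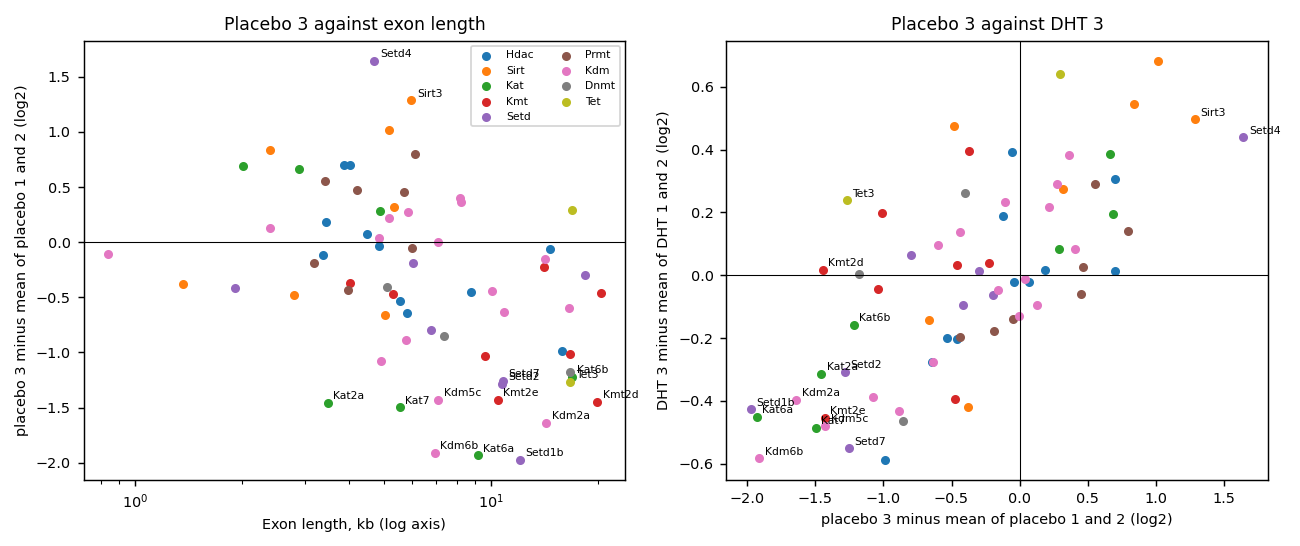
Left: placebo 3 minus the mean of placebo 1 and 2 (log2, vertical axis) against exon length in kb (log axis) for the 70 tested members, coloured by family. Right: the same distance (horizontal axis) against that of DHT 3 from DHT 1 and 2 (vertical axis). Long genes such as Setd1b (−1.97) lie low in placebo 3, and the distances of both libraries go together (r = 0.72).

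The partners and cofactor routes of these enzymes were read from 10 lists. By edgeR, among other methyltransferases 0 of 15 were called, among other demethylases 0 of 6, among HDAC corepressor subunits 0 of 21, among MLL/COMPASS subunits 0 of 10, among HAT complex subunits 0 of 20 and among DNA methylation readers 0 of 12. DESeq2 called 1 of the 6 demethylases, Hr, and 1 of the 12 readers, Mbd4, and 0 in the other lists just named. The shares called over all genes were 1.65% by edgeR and 7.02% by DESeq2, so 0 calls in lists this short say little. The median log2 fold changes of these lists lay between 0.053 and 0.34. Mbd4, a thymine glycosylase gene that repairs deaminated CG sites (chromosome 6, 115840697 to 115853371), had 0.619, 0.315 and 0.473 CPM in placebo and 1.07, 1.09 and 1.43 in DHT. The groups were apart, with a log2 fold change of 1.34 ± 0.40 (adjusted p = 0.160 by edgeR, 0.0378 by DESeq2 and 0.041 with the replicate block; 0.0378 to 0.41 over the 17 alternatives). Hr, a demethylase and corepressor gene (chromosome 14, 70552212 to 70573548), had 0.860, 0.749 and 0.206 CPM in placebo and 4.72, 3.93 and 0.984 in DHT (2.40 ± 0.69, adjusted p = 0.153 by edgeR, 0.00671 by DESeq2, 0.0159 without both libraries numbered 3 and 1.99e-05 with the block; at most 0.433 over the 17 alternatives).

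Those of smallest p in the other lists were Whsc1 (NSD2; 0.75 ± 0.26, adjusted p = 0.227), Sin3b (−0.62 ± 0.26, 0.293), Dpy30 (−0.89 ± 0.44, 0.365) and Trrap (0.66 ± 0.34, 0.381), on the log2 scale from the same edgeR fit. Dpy30 had 18.2, 16.3 and 48.7 CPM in placebo and 12.4, 13.5 and 19.0 in DHT, so that placebo 3 stood far above the rest. Without placebo 3 the values were −0.21 for Dpy30, 0.37 for Trrap and −0.40 for Sin3b. Sin3b was called lower with length and GC trends removed and the block (adjusted p = 0.0431; 0.0431 to 0.679 over the 17 alternatives). Whsc1 writes lysine methylation, Sin3b and Dpy30 are scaffold subunits of corepressor and COMPASS complexes, and Trrap is a scaffold of HAT complexes. Of 8 other acetyltransferase genes, 1 was called, Clock, the core clock activator with a reported acetyltransferase activity. It had 14.2, 15.1 and 7.48 CPM in placebo and 43.2, 33.3 and 42.2 in DHT, with all DHT libraries above placebo (1.69 ± 0.32 on the log2 scale, adjusted p = 0.0445 by edgeR). The call was lost when any 1 library other than placebo 3 was left out (adjusted p from 0.0831 to 0.177).

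Some genes that make or spend the methyl donor, acetyl-CoA and NAD were also read. Gnmt, Nnmt and Acss2 among them were named after their values were seen. The median log2 fold change was −0.57 over 13 methyl donor genes and −0.11 over 11 genes of acetyl-CoA and NAD supply. In these lists Bhmt (0.72, edgeR adjusted p = 0.287) and Pdha1 (0.61, 0.322) were higher in all DHT libraries. Pemt (−0.88, 0.173) and Gamt (−0.69, 0.233) were lower in all of them. Gnmt, which consumes excess S-adenosylmethionine, had 2060, 2308 and 2923 CPM in placebo and 1264, 699.0 and 1716.5 in DHT (−0.99 ± 0.37, adjusted p = 0.249, 0.0965 by DESeq2 and 0.0406 with the block). Nnmt, which spends the methyl donor on nicotinamide, had 276, 93.7 and 253 CPM in placebo and 119, 30.6 and 155 in DHT (−1.03 ± 0.61, adjusted p = 0.443, 0.322 by DESeq2 and 0.00356 with the block), and −0.59 without DHT 2.

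Nampt, which makes the NAD precursor that sirtuins depend on (chromosome 12, 32820335 to 32853369), had 190.5, 193 and 296 CPM in placebo and 46.0, 53.3 and 54.3 in DHT. All DHT libraries were below placebo, and the log2 fold change was −2.15 ± 0.28 (edgeR adjusted p = 0.0107). The gene lost the call without DHT 1 or DHT 2 (adjusted p = 0.073 and 0.0706). Acss2, an acetyl-CoA synthetase gene, had 258, 754 and 318 CPM in placebo and 127, 337 and 133 in DHT, so that the libraries numbered 2 were the highest of both groups. Its log2 fold change was −1.16 ± 0.54 (adjusted p = 0.338, 0.183 by DESeq2 and 0.00679 with the block), and −0.55 without placebo 2. Of 11 genes of α-ketoglutarate supply 0 were called. Idh3a, a subunit of the isocitrate dehydrogenase of the citric acid cycle, had the smallest p of them (−0.58 ± 0.27, adjusted p = 0.347; −0.30 without placebo 3).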

How the data were processed

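Raw gene counts of 6 liver libraries, 1 table each, were deposited by the authors without normalisation. The submitters' processing notes name Trimmomatic 0.36, STAR 2.5.2b, featureCounts, Subread 1.5.2 and GRCm38. Not given in the sources used here are the strand setting and the handling of multi-mapping reads. DHT was compared with placebo in R 4.3.3 with edgeR 4.0.16 (filterByExpr, TMM, robust quasi-likelihood test, no covariates, 15126 genes). A gene was called at an adjusted p under 0.05. Standard errors are the log2 fold change divided by the square root of F. DESeq2 1.42.0 and limma 3.58.1 were alternatives. The same code was tested on simulated data with independent libraries and with changes larger than those of the members. That run therefore says nothing on changes as small as the members' or on deviations shared by libraries.

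Same-numbered libraries deviated together (r = 0.307, 0.198 and 0.641), each above 0.1, so the replicate number was taken as a pairing in an alternative fit. The labels only share numbers, and placebo 2 correlated more with DHT 1 (r = 0.488), placebo 1 as much with DHT 2 (0.319). These values therefore do not show that numbers 1 and 2 pair the libraries, and the calls of the block fit depend on that pairing.

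Members and lists were chosen with earlier results of these data known. Named were every called member, in each family the 2 members of smallest p, the 3 highest per exon length, the 10 largest changes at a mean of at least 1 CPM, and in each partner list the called genes and that of smallest p. Others were named after their values were seen. A result of the partner lists is not reported here.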

Additional observations from a re-analysis of the deposited data

How the results depend on the processing

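Under 17 alternatives (14 planned, and 3 added after seeing the data: both libraries numbered 3 left out, length and GC trends removed, and these trends with the replicate block), 0 members were called except 2 with the replicate block and 2 with the block and trends. The count over all genes, 250, was 521 with no low-count filter, 707 with limma voom, 1062 with DESeq2, 1621 with the block, 448 without both libraries numbered 3, 484 with trends removed and 1649 with trends removed and the block. It ran from 84 to 862 when 1 library was left out (862 without placebo 3), while 0 members were called in each of those 6 fits. Members whose groups did not overlap numbered 33 without both libraries numbered 3, and 20 to 26 with 1 library left out, where 28.1% to 54.3% of all genes did not overlap. With library size alone the family medians were 0.26 (Hdac), −0.064 (Prmt) and 0.50 (Kdm). The Kdm median was 0.47 with the block and 0.115 without both libraries numbered 3, where the Tet median was −0.23 over 3 genes, Tet1 having passed the count filter, and 0.036 over the same 2 genes as in the reported value. With 1 library left out, the medians ran from −0.015 to 0.37 for Sirt, −0.30 to −0.058 for Prmt, 0.093 to 0.46 for Kdm, 0.107 to 0.434 for Kat, 0.176 to 0.632 for Kmt, −0.045 to 0.317 for Setd, 0.077 to 0.57 for Dnmt and −0.28 to 0.425 for Tet. The lowest Tet values again include Tet1, and over the same 2 genes the Tet median ran from 0.148 to 0.425.

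The log2 fold changes of 5 named genes, none called under any alternative, changed sign. Setd3 was −0.00034 with DESeq2 size factors, −0.00031 with DESeq2, −0.017 without both libraries numbered 3, −0.074 with trends removed and −0.068 with trends removed and the replicate block. Sirt3 was 0.039 with library size alone, 0.21 with limma voom and 0.21 (0.206) without both libraries numbered 3. Tet3 was −0.16 with limma voom, −0.36 without both libraries numbered 3, −0.025 with trends removed and −0.027 with the block as well. With 1 library left out the values ran from −0.092 to 0.20 in Setd3, −0.49 to 0.39 in Sirt3, −0.28 to 0.38 in Tet3, −0.13 to 0.32 in Kat2b and −1.13 to 0.074 in Setd4. The cause of these changes was not tested. For the named genes, 540 values kept their direction and side of the threshold, 11 passed it, 7 no longer did and 20 changed sign. The replicate block changed the call of no member other than Kat6b and Kdm4a. With 3 libraries a group, the spread between libraries limits the precision, and leaving 1 out leaves 2 in its group.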
